A study of Mus musculus with 6 samples.

Results

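The genes described here were 7 members of the apparatus that keeps the surface of the eye wet: the membrane-spanning mucins Muc1, Muc4, Muc16 and Muc20, the galectin Lgals3, and the water channels Aqp3 and Aqp5. The set was proposed with earlier results of these data known, and its members were then found by gene symbol, 7 of the 17784 genes listed; all 7 were abundant enough to be tested. Bulk RNA-seq had been carried out on corneal epithelial cells of Prrx1-creERT;Ptch1 mice (Ptch1-ablated) and ctrl mice (control), with 3 samples in each group. Both groups received 3 doses of tamoxifen, the drug that activates the creERT recombinase, at the labelled age of 10 weeks, with a labelled treatment time of 2 months. Prrx1-CreERT acts in keratocytes, the cells of the stroma beneath the epithelium, and the study's results describe it as acting in corneal endothelial cells as well, so the deletion of Ptch1 was directed at cells other than those sequenced. The epithelium was lifted with EDTA, and the study describes 3 biological replicates per group without saying whether a sample was 1 mouse or a pool. The study names the mutant line Prrx1-CreERT;Ptch1 f/f, with floxed Ptch1 alleles, and the labels do not give the full genotype of the control mice.

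Membrane-spanning mucins are long glycoproteins whose serine- and threonine-rich stretches carry dense O-linked sugars. On the tips of the microridges of the outermost corneal cells they form the glycocalyx, the layer that holds the tear film and keeps pathogens and debris from sticking. Galectin-3, the product of Lgals3, binds sugars on these mucins and links them into a lattice, while aquaporins let water, and in the case of Aqp3 also glycerol, cross the cell membrane. Ptch1 encodes the receptor that holds Hedgehog signaling off, so its loss turns the pathway on in the cells that lose it.

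Of the 7 genes, 3 rose in the Ptch1-ablated samples by edgeR's quasi-likelihood test at an adjusted p of at most 0.05, and 0 fell. At an unadjusted p under 0.05, 4 were higher and 0 lower by edgeR. DESeq2 and limma-voom each passed 4 as higher and 0 as lower at the adjusted p. Muc16, which was close to its detection limit, rose 3.80-fold, Muc4 rose 1.42-fold and Lgals3 rose 1.31-fold. Muc16 was the only 1 that also met the threshold of a 2-fold change, the pair of criteria named "called" from here on. Over all 12999 genes tested by edgeR, 3.23% were called, 2.34% as higher and 0.892% as lower. At the adjusted p alone 14% passed, 7.61% as higher and 6.41% as lower. Counts by edgeR in the lists below stand beside the same shares. For an unadjusted p, and for the adjusted p by DESeq2 or limma-voom, no share over all genes was computed. Counts by those criteria, here and below, therefore cannot be set beside all genes. For calls, which also need the 2-fold change, DESeq2 gave 516 genes in all and limma-voom 391, beside 420 by edgeR. Aqp3, Aqp5, Muc1 and Muc20 did not pass. The median log2 fold change of the 7 genes was 0.39, beside −0.0099 over all genes tested. These were bulk samples, so more cells of a kind and more RNA per cell cannot be told apart.

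**Figure D1:**
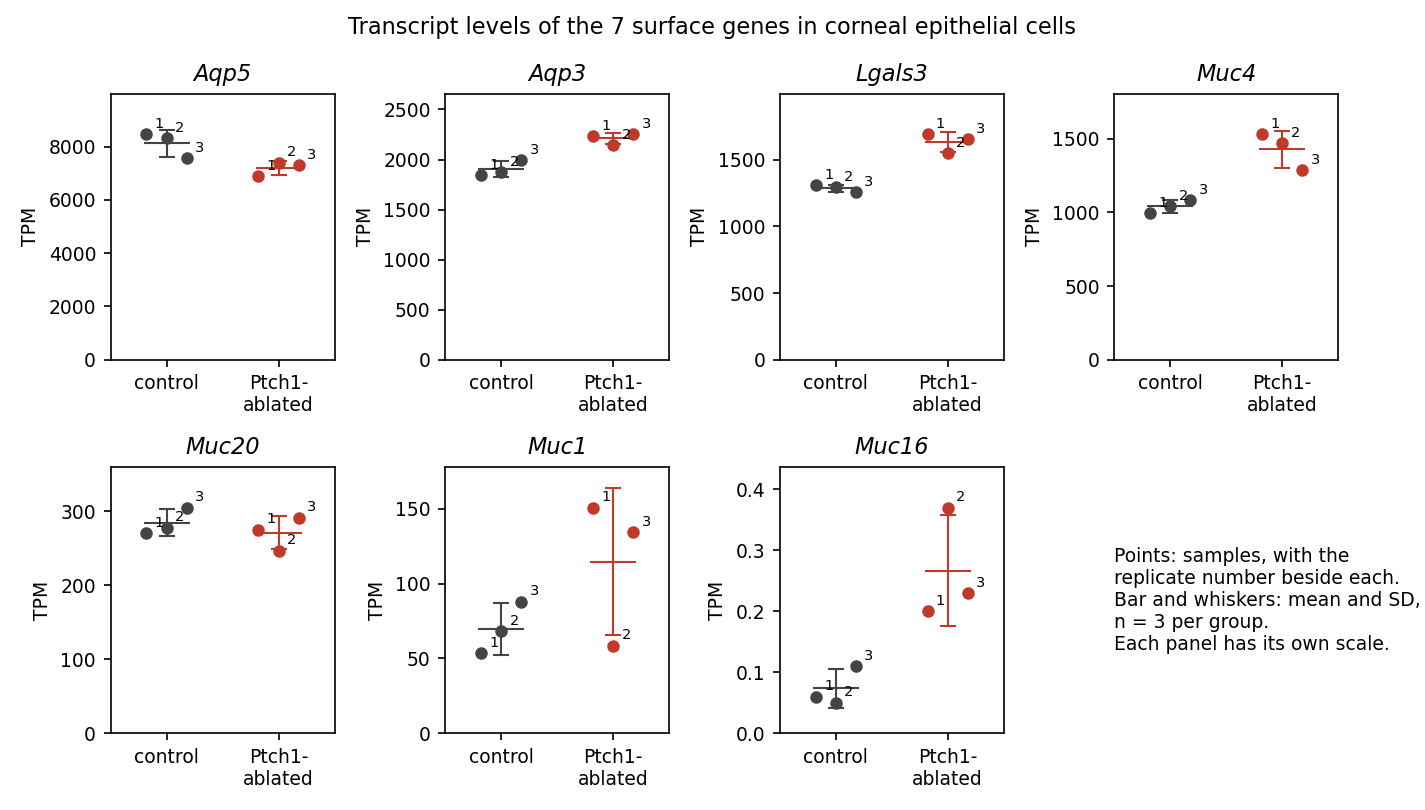
TPM (y axis, linear, from 0) of each of the 7 genes in the 3 control and the 3 Ptch1-ablated samples, 1 panel per gene with its own scale; points are samples with their replicate numbers, and bars with whiskers are means with SD. The Ptch1-ablated samples of Muc4, Muc16, Lgals3 and Aqp3 all sit above the control samples, those of Aqp5 all sit below, and Muc1 and Muc20 overlap.

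The libraries were even in size, with 20296741 to 20625813 expected counts each, and 3 counts corresponded to 0.145 to 0.148 CPM. On the first principal component, which held 58.1% of the variance, the controls lay between −33.7 and −26.5, while the Ptch1-ablated samples lay at 51.7 (replicate 1), 18.3 and 19.1. Krt12, the keratin that defines corneal epithelium, had the highest TPM of all genes in every sample, from 37107 to 49487, and Krt5 and Pax6 were at means of at least 353.2 TPM in both groups. Kera, the keratocyte marker, was at 0 to 0.07 TPM, and Ptprc, which marks leukocytes, was at 0.02 to 0.20. Ptch1 itself was at 7.31, 9.70 and 10.2 TPM in the controls and at 5.28, 6.33 and 7.01 in the Ptch1-ablated samples, with a log2 fold change of −0.51 ± 0.13 (SE; adjusted p = 0.0401, edgeR's quasi-likelihood test). Ptch1 levels in these epithelial samples do not check the deletion in keratocytes. Some stroma markers were above 0, most in control replicate 3, where Col1a2 was at 26.0 TPM and Prrx1 at 4.66, beside at most 2.62 and 0.78 in the other 5 samples.

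The levels of the 7 genes, compared per transcript length as TPM, spanned from among the most abundant transcripts of the tissue to nearly none. Aqp5 was first, at ranks 7 to 12 of all genes, followed by Aqp3 at ranks 40 to 58, Lgals3 at 66 to 100, Muc4 at 81 to 132, Muc20 at 418 to 517, Muc1 at 922 to 2844 and Muc16 at 13014 to 15060. The order of the 7 was the same in both groups, and neighbours in it did not overlap within either group. Muc4 made up 75.5%, 75.1% and 73.4% of the summed TPM of the 4 mucins in the controls and 78.2%, 82.8% and 75.2% in the Ptch1-ablated samples. That share overlapped between the groups (mean 74.7% ± 1.10 and 78.7% ± 3.84, SD, n = 3 each; two-sided exact permutation test, p = 0.2, adjusted p = 0.25 over 5 such measures).

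The promoters of the mucin and galectin genes that rose are given here, with that of Muc20, because Muc20 lies against Muc4. Each sequence holds the 250 bases before the RefSeq transcription start (GRCm38.p6), 5′ to 3′ on the strand of the gene. Capitals mark matches on either strand to GGGNGNGG, the core of the sites of Kruppel-like factors, or to GGAATG, the core of the site of TEAD factors. Muc4 spans chr16:32735636-32735885 on the plus strand, Muc16 chr9:18674604-18674853 on the minus strand, Lgals3 chr14:47373610-47373859 on the plus strand and Muc20 chr16:32797436-32797685 on the minus strand.
Muc4: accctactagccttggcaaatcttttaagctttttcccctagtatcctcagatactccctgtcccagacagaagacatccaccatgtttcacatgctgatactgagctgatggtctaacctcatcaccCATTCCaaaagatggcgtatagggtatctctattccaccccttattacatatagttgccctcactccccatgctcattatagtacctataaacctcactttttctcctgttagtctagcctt
Muc16: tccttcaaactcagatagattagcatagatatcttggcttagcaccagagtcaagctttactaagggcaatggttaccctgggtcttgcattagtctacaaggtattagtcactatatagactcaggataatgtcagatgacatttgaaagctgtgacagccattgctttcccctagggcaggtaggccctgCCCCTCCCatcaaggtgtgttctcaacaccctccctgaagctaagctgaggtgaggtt
Lgals3: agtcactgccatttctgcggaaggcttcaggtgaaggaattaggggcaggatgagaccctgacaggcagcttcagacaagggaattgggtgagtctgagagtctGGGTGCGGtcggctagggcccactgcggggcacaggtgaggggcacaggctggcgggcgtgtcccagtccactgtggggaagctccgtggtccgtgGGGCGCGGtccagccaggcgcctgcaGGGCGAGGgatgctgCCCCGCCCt
Muc20: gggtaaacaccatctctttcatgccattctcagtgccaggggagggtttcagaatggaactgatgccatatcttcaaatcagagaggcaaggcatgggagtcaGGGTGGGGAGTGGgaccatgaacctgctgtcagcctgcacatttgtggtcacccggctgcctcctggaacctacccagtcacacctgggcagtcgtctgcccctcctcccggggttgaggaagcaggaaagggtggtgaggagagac

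The 4 windows differed in composition, from 43.6% G and C in Muc4 to 66.0% in Lgals3, beside a median of 52.4% over 32851 promoter windows of the same length. Matches to GGGNGNGG were present in 6 of the 7 genes, all but Muc4, and in 45.9% of all windows; in Muc20 the run of capitals holds 2 matches that overlap. GGAATG was found in Muc1 and Muc4 only, 2 of 7, and in 12.6% of all windows. TGANTCA, the AP-1 site, and CCACCCA, a part of the Gli site, were found in 0 of the 7 windows, beside 6.75% and 8.11% of all windows. Matches are letters in these windows and were not tied to binding or to the changes in level.

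Muc4, the most abundant of the 4 mucins, is a long mucin that also carries EGF-like modules and is known to bind Erbb2. Its gene lies on the plus strand at chr16:32735886-32782391 (GRCm38), and its longest coding transcript has 11277 bases in 27 exons. Muc4 was at 995.6, 1043 and 1085 TPM in the controls and at 1531, 1469 and 1288 in the Ptch1-ablated samples. The lowest Ptch1-ablated sample, replicate 3, was above the highest control, and the groups did not overlap. Muc4 rose by 0.50 ± 0.11 on the log2 scale (SE; adjusted p = 0.0298, edgeR's quasi-likelihood test), which is under the 2-fold threshold. Muc4 rested on 109653 to 169229 expected counts per sample, 0.534% to 0.565% of all counts in the controls and 0.663% to 0.820% in the Ptch1-ablated samples. Its direction held when each sample was left out in turn, with log2 fold changes of 0.42 to 0.60, but the adjusted p then lay between 0.0213 and 0.127 and passed in 2 of 6 such fits.

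Muc20, a shorter membrane mucin known for its interaction with the receptor Met, showed no difference beyond its error. It was at 269.7, 277.8 and 304.7 TPM in the controls and at 275.1, 246.5 and 291.1 in the Ptch1-ablated samples. The lowest of the 6 was a Ptch1-ablated sample and the highest a control, and the groups overlapped. The log2 fold change of 0.017 ± 0.074 (SE; adjusted p = 0.898, edgeR's quasi-likelihood test) was smaller than its error, and its sign was negative on the TPM scale. The TPM of Muc4 over that of Muc20, a measure chosen after its values were seen, was 3.69, 3.75 and 3.56 in the controls and 5.57, 5.96 and 4.43 in the Ptch1-ablated samples. The ratio was thus higher in each Ptch1-ablated sample than in any control, and the two-sided exact permutation test gave p = 0.1, the smallest that 3 samples against 3 allow (adjusted p = 0.167 over 5 measures).

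Muc4 and Muc20 are neighbours that face each other, and their 3′ ends run through the same DNA. Muc20 lies on the minus strand at chr16:32777419-32797435, and the genes overlap over 4973 bases, chr16:32777419-32782391 (GRCm38). Within that overlap 627 bases are exonic in both, of which 477 are UTR of Muc20 and 150 are its coding sequence. The counts showed reads that were shared between them: the expected counts of both genes were fractional in 6 of 6 samples, and their sum was whole in each, with a deviation of 0 where the next best partner of Muc4 left 0.12. How the counting treated strand is not given in the sources used here, so reads from this stretch cannot be assigned to 1 of the genes with certainty. With Muc4 and Muc20 counted as 1 feature, an alternative chosen after seeing the data, the log2 fold change was 0.48 (adjusted p = 0.0328, edgeR's quasi-likelihood test).

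**Figure D2:**
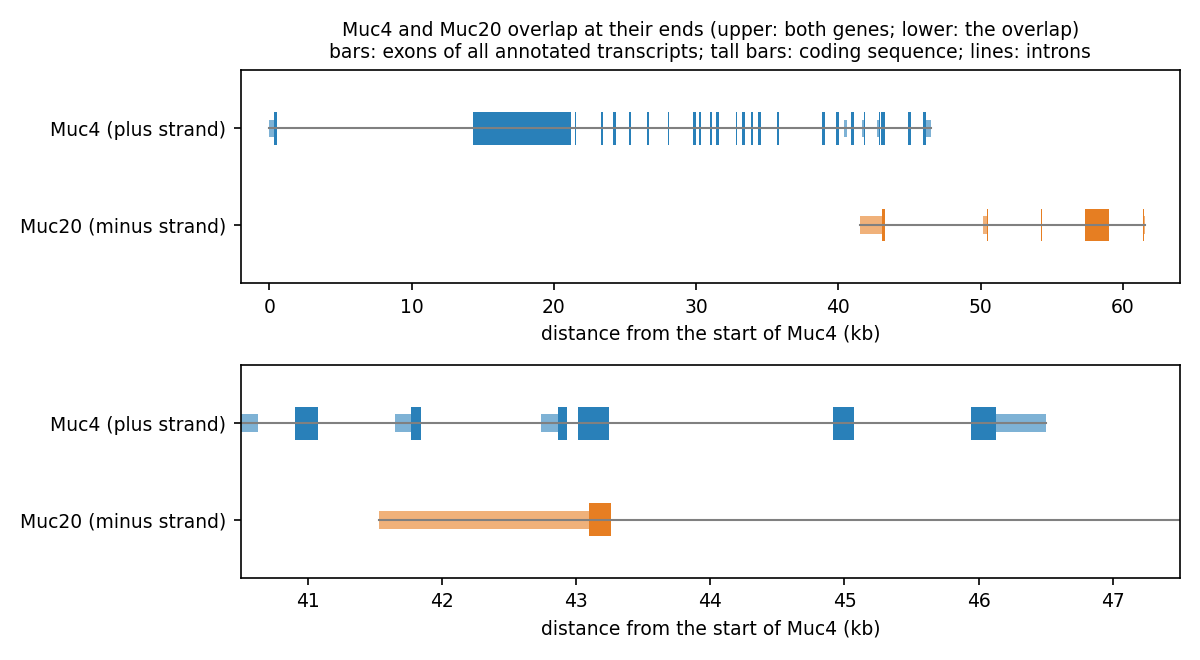
Map of Muc4 (plus strand) and Muc20 (minus strand) in kb from the start of Muc4 (x axis), with both genes above and the overlap enlarged below; bars are exons of all annotated transcripts, tall dark bars are coding sequence, and lines are introns. The last exon of Muc20 lies under exons of Muc4.

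Muc16, the largest of the mucins and the source of the CA125 antigen, is known as a main barrier mucin of the human ocular surface. Its gene lies on the minus strand at chr9:18495455-18674530 (GRCm38), with 78 exons and 25437 bases in its longest coding transcript. Muc16 was at 16, 12 and 27 counts in the controls and at 53, 93 and 56 in the Ptch1-ablated samples, which is 0.06, 0.05 and 0.11 against 0.20, 0.37 and 0.23 TPM. The lowest Ptch1-ablated sample was above the highest control, and replicate 2, the lowest Ptch1-ablated sample in Muc1 and Muc20, was the highest here. Muc16 rose by 1.92 ± 0.37 on the log2 scale (SE; adjusted p = 0.0204, edgeR's quasi-likelihood test). Few reads stood behind it, since a control held 12 to 27 counts spread over this long transcript. Without control replicate 1 the adjusted p was 0.0659, and without control replicate 2 it was 0.0908, so the call ended in either case.

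Muc1, the member of the 4 with the shortest coding sequence, is a widely expressed epithelial mucin with a cytoplasmic tail that binds signaling proteins such as β-catenin. The gene lies on the plus strand at chr3:89229057-89233381 (GRCm38), with 7 exons and a transcript of 2242 bases. Muc1 was at 53.3, 68.2 and 87.9 TPM in the controls and at 150.7, 58.5 and 134.5 in the Ptch1-ablated samples. Replicates 1 and 3 of the Ptch1-ablated group were above every control, whereas replicate 2 was between the first and the second control. Its log2 fold change of 0.77 ± 0.34 (SE; adjusted p = 0.157, edgeR's quasi-likelihood test) did not pass. With each sample left out in turn, the log2 fold change was 0.47 to 1.08 and the adjusted p 0.0288 to 0.367 by the same test, and 1 of 6 such fits passed. Muc1 was called in that fit, the 1 without Ptch1-ablated replicate 2 (1.08, adjusted p = 0.0288). Without Ptch1-ablated replicate 1 the log2 fold change was 0.47 (adjusted p = 0.367).

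Among 9 tested markers of goblet cells and of the conjunctiva, the tissue that borders the cornea, 4 keratins chosen after their values were seen resembled Muc1 in their spread within the Ptch1-ablated group. Krt7 was at 23.9, 33.5 and 42.04 TPM in the controls and at 77.9, 28.1 and 49.6 in the Ptch1-ablated samples, placing the 6 samples in the same order as Muc1 did. Krt19 was at 85.6, 133.3 and 209.3 against 586.9, 161.8 and 350.0 TPM, and Krt4 was at 104.8, 151.6 and 223.5 against 898.1, 169.7 and 528.2. Krt13 was at 1193, 1553 and 1877 against 3182, 1843 and 2009 TPM. Ptch1-ablated replicate 2 was the lowest of its group in each of these keratins and in Muc1, and replicate 1 was the highest. The other 5 markers lacked that pattern: Krt8 was at 5.90, 7.96 and 7.10 TPM in the Ptch1-ablated samples and Fcgbp at 16.2, 28.9 and 29.3, both lowest in replicate 1, while Agr2 and Krt18 were highest in replicate 3 and Clca1 was lowest there. Of the 9, 1 (Krt7) placed all 6 samples in the order of Muc1. None of the 4 keratins passed, with log2 fold changes of 0.71 for Krt7 (adjusted p = 0.217), 1.46 for Krt19 (0.0793), 1.80 for Krt4 (0.0685) and 0.68 for Krt13 (0.107) by edgeR's quasi-likelihood test.

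**Figure D3:**
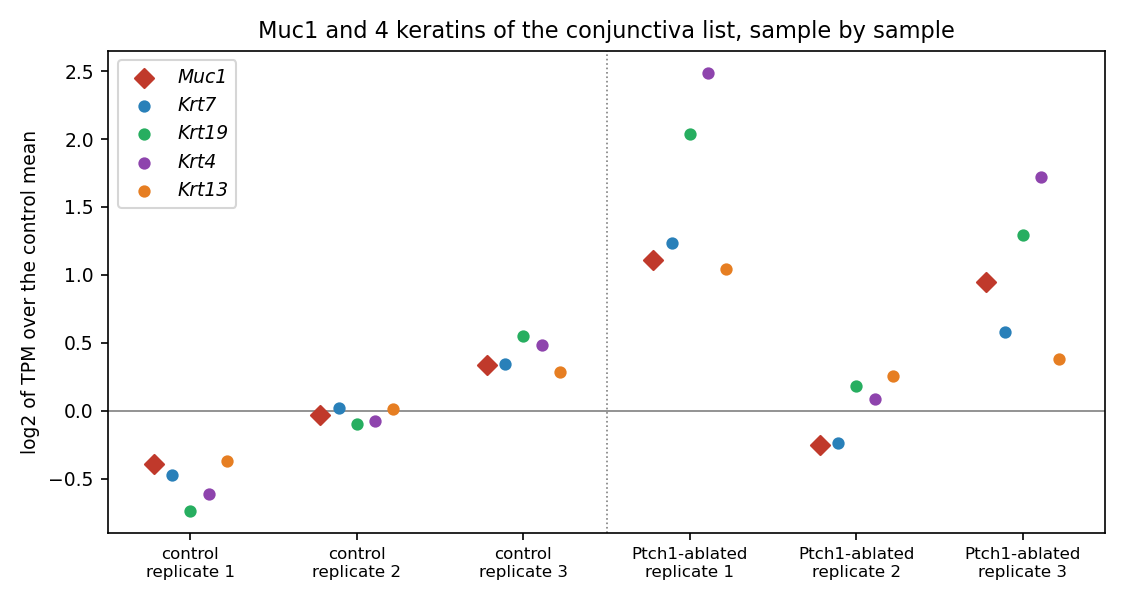
Log2 of TPM over the control mean (y axis) of Muc1, Krt7, Krt19, Krt4 and Krt13 in each of the 6 samples (x axis, 3 control samples and then 3 Ptch1-ablated samples); diamonds are Muc1, circles are the keratins, and the dotted line divides the groups. All 5 genes are low in Ptch1-ablated replicate 2 relative to replicate 1 of that group.

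Of the 14 goblet cell and conjunctiva markers listed, 13 were in the table and 9 could be tested. Of these 0 were called by edgeR or limma-voom and 1 by DESeq2, Krt4; 4 were higher and 1 lower at an unadjusted p under 0.05, and 1 passed the adjusted p, Krt8, with a log2 fold change of −0.91 (adjusted p = 0.0139, edgeR's quasi-likelihood test). Agr2 had −0.32 ± 0.31 (SE; adjusted p = 0.515) and Fcgbp −0.31 ± 0.18 (SE; adjusted p = 0.283). The median log2 fold change of the 9 was 0.68, and the summed level of the list was 1463 to 2416 TPM in the controls and 2251 to 4786 in the Ptch1-ablated samples, ranges that overlapped. The defining goblet cell genes were near the floor: Spdef, a transcription factor that goblet cells need, was at 0.07 to 0.38 TPM, and Tff1 and Tff3, which encode secreted trefoil peptides, were at 0 in every control and at most at 0.53 TPM in the Ptch1-ablated samples. Muc5ac, the gel-forming mucin of goblet cells, was the listed marker that was not in the table, so it could not be analysed. The part of conjunctival cells in the Muc1 values was not tested.

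Lgals3 encodes galectin-3, which cross-links the sugars of Muc1 and Muc16 at the apical surface and also sits in the cytoplasm and nucleus. The gene lies on the plus strand at chr14:47367751-47386160 (GRCm38), with a longest coding transcript of 1419 bases. Lgals3 was at 1307, 1295 and 1259 TPM in the controls and at 1693, 1548 and 1656 in the Ptch1-ablated samples. The controls lay close together, all 3 Ptch1-ablated samples were higher, and the groups did not overlap. Lgals3 rose by 0.38 ± 0.081 on the log2 scale (SE; adjusted p = 0.0258, edgeR's quasi-likelihood test), under the 2-fold threshold. Leaving out 1 sample at a time gave log2 fold changes of 0.32 to 0.42 and adjusted p-values of 0.0358 to 0.111, of which 3 of 6 passed.

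The aquaporins were the most abundant of the 7 genes, and neither passed. Aqp3, the water and glycerol channel of the basal and lateral membranes of stratified epithelia, was at 1841, 1874 and 1992 TPM in the controls and at 2232, 2145 and 2254 in the Ptch1-ablated samples. All Ptch1-ablated samples were above all controls. Its log2 fold change of 0.26 ± 0.073 (SE) had an adjusted p of 0.0548 by edgeR's quasi-likelihood test, above the threshold of 0.05. The adjusted p was 0.00177 by DESeq2 and 0.0490 by limma-voom, the only 2 that passed of 10 alternatives with all 6 samples. With each sample left out in turn, the log2 fold change was 0.22 to 0.28. The adjusted p was then 0.0764 to 0.202 by edgeR's quasi-likelihood test, and 0 of 6 such fits passed. Aqp3 lies on the minus strand at chr4:41092722-41098183 (GRCm38), and its counts were fractional in 6 of 6 samples with no single partner gene found.

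Aqp5, the apical water channel of corneal epithelium, lacrimal gland and salivary gland, lies on the plus strand at chr15:99590782-99594829 (GRCm38). Aqp5 was at 8465, 8326 and 7554 TPM in the controls and at 6886, 7394 and 7307 in the Ptch1-ablated samples. On the TPM scale all Ptch1-ablated samples were below all controls, but on the CPM scale with TMM factors, on which the test was run, the groups overlapped, with 6062, 5724 and 5116 against 5148, 5266 and 4971. On that scale the log2 fold change was −0.14 ± 0.092 (SE; adjusted p = 0.339, edgeR's quasi-likelihood test). The TPM of Aqp5 over that of Aqp3, chosen after its values were seen, was 4.60, 4.44 and 3.79 in the controls and 3.09, 3.45 and 3.24 in the Ptch1-ablated samples. It was lower in each Ptch1-ablated sample than in any control (mean 4.28 ± 0.428 and 3.26 ± 0.182, SD, n = 3 each; two-sided exact permutation test, p = 0.1, the smallest possible, adjusted p = 0.167).

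Counted by samples on the CPM scale, 4 of the 7 genes had groups that did not overlap, all of them higher (Muc4, Muc16, Lgals3 and Aqp3) and 0 lower; over all genes tested 39.9% did not overlap, 19.7% as higher and 20.3% as lower. The summed TPM of the 4 mucins, again chosen after its values were seen, was 1319, 1389 and 1478 in the controls and 1957, 1774 and 1714 in the Ptch1-ablated samples. The groups did not overlap (mean 1400 ± 79.7 and 1820 ± 127, SD, n = 3 each; two-sided exact permutation test, p = 0.1, the smallest possible, adjusted p = 0.167). Muc4 made up 73.4% to 82.8% of the sum in each sample, so the sum mostly repeats the Muc4 values. Muc1 made up 4.04%, 4.91% and 5.95% of that sum in the controls and 7.70%, 3.30% and 7.85% in the Ptch1-ablated samples, overlapping shares (p = 0.4 by the same exact permutation test).

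**Figure D4:**
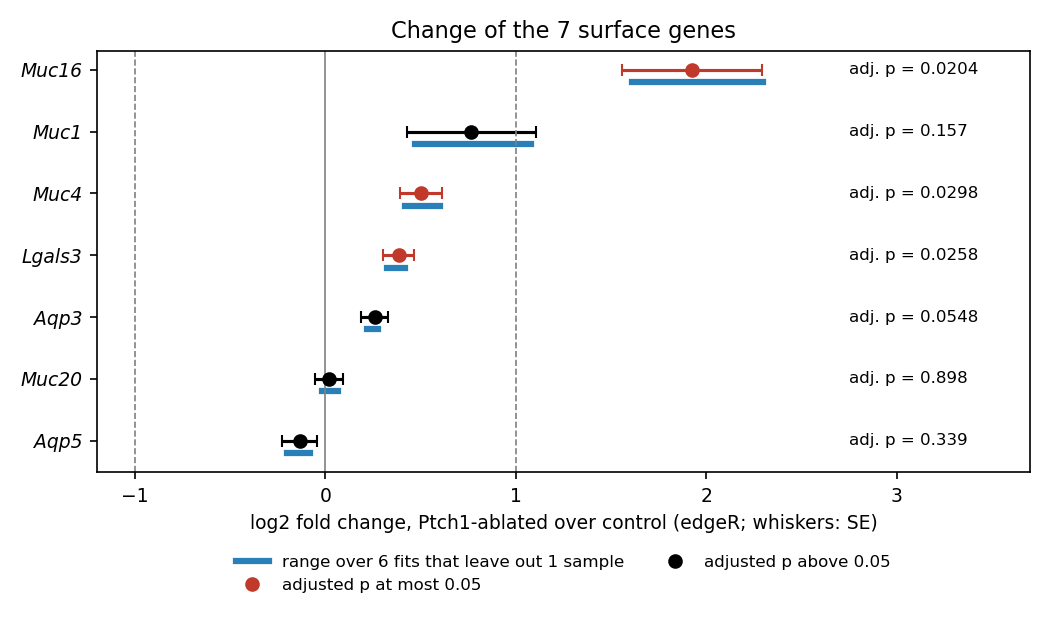
Log2 fold change of the 7 genes, Ptch1-ablated over control (x axis), from edgeR's quasi-likelihood test; points are estimates, red where the adjusted p was at most 0.05, whiskers are SE, blue bars are the range over 6 fits that each leave out 1 sample, and dashed lines mark a 2-fold change. Muc16 alone lies beyond the 2-fold line, with the widest whisker, and Muc20 lies on 0.

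None of the other mucins passed edgeR's quasi-likelihood test. Of the 19 listed, 12 were in the table and 6 could be tested, and of these 0 were called and 0 passed the adjusted p; at an unadjusted p under 0.05, 2 were higher and 2 lower, limma-voom passed 0 and DESeq2 passed 1 as lower, Muc15. Cd164, a small sialomucin of endosomes and the cell surface, was the most abundant of them, at a mean of 489.9 ± 9.81 TPM in the controls and 470.2 ± 13.2 in the Ptch1-ablated samples (SD, n = 3 each). The membrane mucin Muc15, named after its values were seen, was at 213.8, 215.9 and 196.5 TPM in the controls and at 119.4, 160.0 and 180.5 in the Ptch1-ablated samples. Each Ptch1-ablated sample of Muc15 was below each control, the opposite direction to Muc4, with a log2 fold change of −0.42 ± 0.12 (SE; adjusted p = 0.0609, edgeR's quasi-likelihood test).

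Nor did the relatives of Lgals3 and of the aquaporins pass. The list of other galectins had 8 genes tested, among them Lgals3bp, which encodes a protein that binds galectin-3 and is not itself a galectin. Of the 8, 0 were called and 0 passed the adjusted p by edgeR, DESeq2 or limma-voom. An unadjusted p under 0.05 was found in 0, and the median log2 fold change was −0.23. Lgalsl, the most abundant of these by mean TPM, had 0.47 ± 0.24 (SE, with an adjusted p of 0.216 by edgeR's quasi-likelihood test). Of the other aquaporins, 9 were in the table and 3 could be tested; 0 passed the adjusted p by edgeR or limma-voom, and 1, Aqp2, passed as lower by DESeq2 and at an unadjusted p under 0.05. Aqp2, a vasopressin-regulated water channel of the kidney and the most abundant of these, was at 9.92, 7.61 and 6.93 TPM in the controls and at 4.39, 5.11 and 5.11 in the Ptch1-ablated samples. Those groups did not overlap, and the log2 fold change of −0.71 ± 0.20 (SE) had an adjusted p of 0.0535 by edgeR's quasi-likelihood test. Aqp1, the channel of corneal endothelium and keratocytes, was at 0 to 0.19 TPM.

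The enzymes that build the sugars on mucins passed at a share close to that of all genes. Of 34 genes of mucin-type O-glycosylation, 22 could be tested, 1 was called and higher, 1 passed the adjusted p as higher and 2 as lower, and the median log2 fold change was 0.021; beside these 3 of 22 stand the 14% of all genes tested that passed and the 3.23% that were called. DESeq2 called 2 as higher and passed 4 as higher and 4 as lower at the adjusted p, and 6 were higher and 6 lower at an unadjusted p under 0.05 by edgeR. The called gene was St3gal1, a sialyltransferase that caps the core O-glycan of mucins, at 1.67, 1.69 and 1.74 TPM in the controls and at 5.51, 3.54 and 6.43 in the Ptch1-ablated samples. Every Ptch1-ablated sample exceeded the controls, which differed little among themselves, and the log2 fold change was 1.63 ± 0.21 (SE; adjusted p = 0.00857, edgeR's quasi-likelihood test). Without control replicate 2 the adjusted p of St3gal1 was 0.0566. Galnt4, which adds the first sugar to partly glycosylated mucin stretches, fell by 0.49 on the log2 scale (adjusted p = 0.0112), and St3gal2, a close relative of St3gal1, fell by 0.48 (adjusted p = 0.0214), both by edgeR's quasi-likelihood test and both under the 2-fold threshold. St6galnac1, the sialyltransferase with the highest TPM in the list, had a log2 fold change of −0.42 ± 0.14 (SE; adjusted p = 0.0756).

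The proteins that tie membrane mucins to the cell or bind galectin-3 included 6 genes that passed, all of them higher. Of 16 tested by edgeR, 1 was called, 6 passed the adjusted p as higher and 0 as lower (7 and 0 at an unadjusted p under 0.05; 6 and 0 by DESeq2, 5 and 0 by limma-voom), beside 7.61% and 6.41% of all genes tested, and the median log2 fold change was 0.10. The called gene was Msn, encoding moesin, 1 of the ERM proteins that join the tails of membrane mucins to actin. Msn was at 0.62, 0.75 and 3.25 TPM in the controls and at 21.6, 5.33 and 8.76 in the Ptch1-ablated samples. Controls and Ptch1-ablated samples did not overlap, although control replicate 3 and Ptch1-ablated replicate 1 lay far from the others of their groups. Msn rose by 3.03 ± 0.73 on the log2 scale (SE; adjusted p = 0.0373, edgeR's quasi-likelihood test), and the adjusted p rose past the threshold without control replicate 1 (0.0984), control replicate 2 (0.138), Ptch1-ablated replicate 1 (0.0629) or Ptch1-ablated replicate 3 (0.0517), and with limma-voom (0.0605).

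The other ERM proteins did not pass. Ezr, which encodes ezrin and had the highest TPM of the list, had a log2 fold change of −0.029 ± 0.078 (SE; adjusted p = 0.830, edgeR's quasi-likelihood test), and Rdx, which encodes radixin, had 0.092 ± 0.064 (adjusted p = 0.352). The members that passed without reaching 2-fold were the integrin subunits Itga6 (log2 fold change 0.81, adjusted p = 0.00376), Itgb1 (0.36, 0.0375) and Itga3 (0.31, 0.0358), which anchor epithelial cells to the basement membrane and are glycoproteins that galectin-3 can bind. They also included Met, the receptor with which Muc20 interacts (0.42, 0.0209), and Slc9a3r1, the scaffold that links membrane proteins to ezrin (0.33, 0.0284). Erbb2, the receptor bound by Muc4, had −0.16 ± 0.097 (SE; adjusted p = 0.292).

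**Figure D5:**
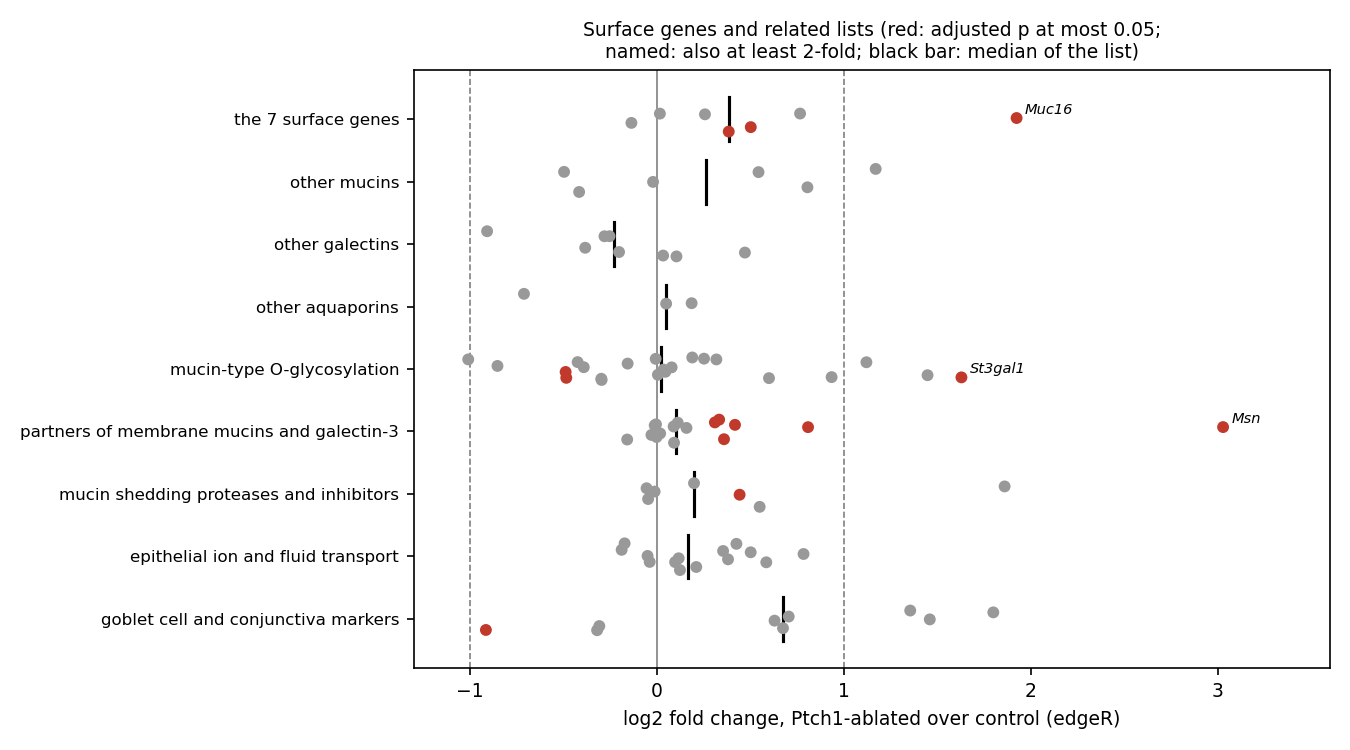
Log2 fold change (x axis, Ptch1-ablated over control, edgeR) of each tested gene of the 7 surface genes and of 8 related lists, 1 line per list with points spread vertically for visibility; red points passed an adjusted p of 0.05, named points also changed at least 2-fold, and black bars are list medians. The red points of the partners lie right of 0, while those of O-glycosylation lie on both sides.

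Mucins leave the surface by shedding. Of the proteases and inhibitors that act there, 1 of 7 tested passed the adjusted p, a share close to the 14% of all genes tested. Of 7 tested, 0 were called by edgeR, DESeq2 or limma-voom, 3 were higher at an unadjusted p under 0.05, and 1 passed the adjusted p: Mmp14, a membrane metalloprotease known to cleave Muc1, with a log2 fold change of 0.44 ± 0.092 (SE; adjusted p = 0.0253, edgeR's quasi-likelihood test). It was also the most abundant of the list. Adam17, the main sheddase of membrane proteins, had −0.012 ± 0.074 (SE; adjusted p = 0.931). Among 14 genes of ion and fluid transport, through which the epithelium moves salt along with water, 0 were called and 0 passed the adjusted p by edgeR or limma-voom, DESeq2 passed 2 as higher, 3 were higher at an unadjusted p under 0.05 by edgeR, and the most abundant, the sodium pump subunit Atp1b3, had −0.049 ± 0.079 (SE; adjusted p = 0.700).

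The 7 genes were also set beside the markers of the cells that the EDTA sheets could hold. Of 12 corneal epithelium markers tested, 1 was called: Krt14, a keratin of basal and limbal cells, at 533.9, 535.1 and 643.6 TPM in the controls and at 5798, 3254 and 2420 in the Ptch1-ablated samples, with a log2 fold change of 2.81 ± 0.34 (SE; adjusted p = 0.00769, edgeR's quasi-likelihood test). The median log2 fold change of the 12 was 0.0148, and 6 of the 12 had a positive one. By TPM, Ptch1-ablated replicate 1 was the highest of its group in Krt14, Muc4, Muc1 and Lgals3. It was the lowest in Muc16 and Aqp5, and between the others in Muc20 and Aqp3. Stroma markers summed to 8.74 to 39.9 TPM in the controls and 7.33 to 10.8 in the Ptch1-ablated samples, 0 of 4 tested were called by edgeR (1 was lower at an unadjusted p under 0.05; DESeq2 and limma-voom called 0), and the 4 were Col1a2 with −2.51 ± 1.32 (SE; adjusted p = 0.223), Prrx1 with −1.80 ± 1.12 (0.298), Pdgfra with −0.51 ± 0.19 (0.107) and Col5a1 with −0.23 ± 0.52 (0.798). Control replicate 3 was the highest in Col1a2, Prrx1 and Col5a1. Among stroma markers too low to be tested by edgeR, Dcn was at 0.06 to 0.36 TPM in the controls and 0.54 to 1.35 in the Ptch1-ablated samples. Ptgds was at 0.13 to 0.14 and 0.26 to 0.88 TPM, whereas Kera, Col1a1, Thy1 and Cd34 overlapped between the groups. At an unadjusted p under 0.05, DESeq2 had 1 stroma marker higher and 1 lower. Immune cell markers summed to 119.0 to 155.8 TPM and 151.0 to 277.1, with 0 of 4 called (1 higher at an unadjusted p under 0.05; DESeq2 and limma-voom called 0, and DESeq2 passed 1 as higher at the adjusted p). That sum came mainly from Itgam and Cd68, and in Ptch1-ablated replicate 1 also from S100a8. S100a8 was at 78.8 TPM there, at 0 in every control and at 0.31 and 0.94 in the other Ptch1-ablated samples. Every other marker of the list was at most at 2.07 TPM in any sample (C1qa). Ptprc was at 0.02 to 0.20 TPM, and Adgre1 and Cd3e were at or near 0. Of 5 endothelium markers 0 were called by any of the 3 tools and 1, Tjp1, which epithelia also express, passed with 0.37 ± 0.071 (SE; adjusted p = 0.0208). No lacrimal gland marker could be tested, and the single 1 in the table, Bhlha15, was at most at 0.41 TPM. The part of a changed mix of epithelial cells in the mucin and Lgals3 values was not tested.

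For each of the 7 genes, the 3 genes whose log2 CPM moved most alike over the 6 samples were found among the 9003 genes with a mean of at least 10 CPM, by the root mean square difference of values centred on each gene's mean. Muc16 was followed by Msln, the surface glycoprotein mesothelin, at a distance of 0.348, and by Bcl3 and LOC115488029. Msln was at 4.59, 4.0 and 8.78 TPM in the controls and at 18.3, 17.0 and 23.0 in the Ptch1-ablated samples, groups that did not overlap, with a log2 fold change of 1.80 (adjusted p = 0.0113, edgeR's quasi-likelihood test). Msln was picked because its values resembled those of Muc16, so its difference between the groups is no separate result. Nearest to Muc1 were the keratins Krt15 (0.155) and Krt7 (0.156), then Npas2 (0.24). Nearest to Muc4 were Cyrib (0.035), Lmna (0.040) and Jpt2 (0.043), and to Lgals3 were Samd4b (0.019), Ccnl1 and Larp7. Usp47 (0.017), Rbmxl1 and Psmd12 lay nearest to Aqp3, Pfdn2 (0.021), Septin5 and Llph to Aqp5, and Mkrn1 (0.022), Ccnl2 and Adam17 to Muc20. These distances describe 6 samples that share 2 groups, and none of the 7 genes was among the nearest 3 of another.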

How the data were processed

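The authors aligned clean reads with Bowtie2 (2.2.5) and quantified genes with RSEM (1.2.12), and they deposited expected counts, TPM and FPKM per gene and sample; the submitters' processing notes list mm9, while the annotation and the strand setting are not given in the sources used here. The FPKM values and the authors' group means were not used. Expected counts were rounded and tested with edgeR (4.0.16; R 4.3.3): TMM factors, filterByExpr (12999 of 17784 genes), the quasi-likelihood test over all 6 samples and Benjamini-Hochberg adjustment over all genes tested. A call needed an adjusted p of 0.05 or less and a 2-fold change, the thresholds in the study's methods, which name no test. For keratocytes, the study's results state the p cutoff of 0.05 without calling it adjusted. SE is the absolute log2 fold change over the square root of F. Of the values above 0, 39.4% were not whole (tolerance 0.005). TPM served for levels. The code was tested on simulated data. Alternatives used DESeq2 (1.42.0), limma and voom (3.58.1), other factors and filters, a replicate block and each sample left out. The genes and lists were chosen with earlier results of these data known. Besides the 7 genes, those named were called genes of the related lists, defining markers, Ptch1, the most abundant member of each list and the 3 nearest genes; others were chosen after their values were seen. Coordinates and gene models are from GENCODE M21 on GRCm38, not from the files, which hold none. All 7 promoters were matched in RefSeq (GRCm38.p6), whose starts can differ from those of GENCODE.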

Additional observations from a re-analysis of the deposited data

How the results depend on the processing

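Direction held for Muc1, Muc4, Muc16, Lgals3, Aqp3 and Aqp5 under every alternative run. Genes called numbered 420, and 1822 with no minimum fold change, 234 by limma on log2(TPM + 1) at a mean TPM of at least 1, 168 by limma with all genes above 0, and 59 to 430 with 1 sample left out; 59 was without control replicate 2. Of the 7 surface genes, 1 was called, and 3 with no minimum fold change, 0 to 2 with 1 sample left out and 0 in each of the limma fits on TPM (pseudocount 1, pseudocount 0.1, and all genes above 0); the fits at a mean TPM of at least 1 leave out Muc16. Of the related lists 2 genes were called, and 10 with no minimum fold change, 1 by limma-voom, 1 by limma on log2(TPM + 1) with all genes above 0, and 0 to 3 with 1 sample left out. The log2 fold change of Muc16 was 1.61 to 2.30 with 1 sample left out and 0.24 by limma on log2(TPM + 1) with all genes above 0 (adjusted p = 0.0782), a scale that shrinks low values, and that of Muc1 was 0.47 to 1.08. That of Muc20 reversed: it was −0.018 to 0.065 with 1 sample left out and −0.070 in each of the 3 limma fits on TPM. Where construction does not show it, the cause was not tested.

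The replicate numbers did not pair the samples: deviations of same-numbered samples correlated at 0.105, −0.014 and 0.019, and 3 of 6 samples correlated best with their own number. With the replicate block 390 genes were called, and no call among the 7 genes changed. Depth limits Muc16 most, at 12 to 93 counts per sample.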
